A study of Homo sapiens with 12 samples.

Results

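Long noncoding RNAs (lncRNAs) were followed in 2 breast cell lines after overexpression of hsa-miR-140-3p or of its 5'isomiR. An lncRNA gene was taken by its symbol: LINC or SNHG followed by a number, an ending of -AS1, -AS2, -IT1 or -DT, the form MIR...HG, or one of the names MALAT1, NEAT1, GAS5, H19 and TUG1. Of 507 such genes with a probe on the array, 109 were kept because a probe lay above background on 2 or more of the 12 arrays, and these 109 are part of 10491 genes tested. Background was the 0.99 quantile of the 457 probes for olfactory receptor genes on the same array. The members were thus chosen by measured values, and it is said below where an array of a compared group was at background. RefSeq lists 106 of the 109 as lncRNA and HAS2-AS1 as antisense RNA. It lists TUG1 as protein coding, and LINC01293 was not in the table used.

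The samples were MCF10A, a non-transformed breast epithelial line, and MDA-MB-231, a triple-negative breast cancer line. Transfection used a mimic, a synthetic double-stranded small RNA, at 30 nM, and RNA was taken after 48 h for Illumina HumanHT-12 v4 BeadChips. Each line was given hsa-miR-140-3p (2 arrays), 5'isomiR-140-3p (2 arrays), or a control mimic, with 1 array of mimic-ctrl1 and 1 of mimic-ctrl2 forming the control group, called control 1 and control 2. The methods call the arrays of a mimic biological replicates, while the spread of a control group also holds any difference between its control mimics. With 2 arrays a group, the number of arrays limits the precision of every value given here.

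Both mimics come from the 3' arm of the MIR140 hairpin, which lies in an intron of WWP2, and they are shown because they differ at the 5' end by a shift of 1 base. A microRNA pairs with its targets mainly through the seed, bases 2 to 8, printed in capitals, so the shift gives the mimics different seeds. In GRCh38.p14 the canonical sequence lies at chr16:69933142-69933162 and that of the 5'isomiR at chr16:69933143-69933164, both on the plus strand, as read from RefSeq.
hsa-miR-140-3p: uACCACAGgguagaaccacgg
5'isomiR-140-3p: aCCACAGGguagaaccacggac

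LncRNAs are transcripts without a long open reading frame, and several kinds are grouped under the name. Antisense transcripts (-AS) run against a neighbouring gene, divergent transcripts (-DT) leave the same promoter region in the opposite direction, and LINC genes lie between genes. Small nucleolar RNA (snoRNA) host genes (SNHG) carry snoRNAs in their introns, which guide the modification of ribosomal RNA, and their spliced transcripts are often removed by nonsense-mediated decay. MIR...HG genes host microRNAs. Some lncRNAs pair with microRNAs, and OIP5-AS1, known as Cyrano, directs the decay of a microRNA in mice.

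Over the tested genes, arrays of the same mimic and line had correlations of 0.992 to 0.995, the control mimics of a line of 0.981 to 0.985, and arrays of different lines of 0.817 to 0.848. Between 13005 and 14848 probes per array lay above background. The markers fitted the line labels in part. KRT5, KRT14 and CDH1, markers of MCF10A epithelium, were at background on every MDA-MB-231 array, and all 7 probed markers of that list had the higher mean in MCF10A. Of 10 markers listed for MDA-MB-231, VIM, AXL and CDH11 were called higher in that line and MMP1 was above background in that line alone, on all 6 arrays. ZEB1, SPARC and FN1 were at background on all 12 arrays, SNAI2 was called higher in MCF10A, and TWIST1 was above background in MCF10A alone. Fewer cells of a type and less RNA per cell cannot be told apart in such bulk samples.

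Detection set much of what could be seen of the lncRNAs. Of the 507 genes, 347 were above background on no array and 51 on 1 array. Among the 109 kept, 25 passed on 2 arrays only (22.9%, against 4.14% of all tested genes) and 30 passed on all 12 arrays (27.5%, against 69.3%). The snoRNA hosts were detected most widely, with 10 of 13 above background on all 12 arrays, against 8 of 42 antisense transcripts, 7 of 32 LINC genes, 3 of 14 divergent transcripts and 1 of 5 microRNA hosts. The single -IT1 transcript was not above background on every array. Per array, 46 to 70 members were detected. There were 12 members detected in MCF10A only and 16 in MDA-MB-231 only.

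Just inside the rule lay IRX2-DT, whose highest intensities were 172 and 150 on the arrays of the 5'isomiR in MCF10A, and PORCN-DT, with 172 and 150 on those of the 5'isomiR in MDA-MB-231. MIR29B2CHG (163 and 147) and LINC02209 (162 and 151) were the next. Just outside, on 1 array each, lay EHBP1-AS1 at 169, LINC00391 at 169, LINC01751 at 167 and PAXIP1-AS2 at 162, where the background level of the arrays was 129 to 142. A member detected only through the brighter side of a comparison had to differ in it. Such a member is marked below as detected through 1 side only, and its values are a description with no test.

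Of the 5 lncRNAs known by a name of their own, NEAT1, the scaffold of nuclear paraspeckles, was not represented by a probe matched here. MALAT1, an RNA of nuclear speckles, and GAS5, a snoRNA host, had 1 probe each, which was not above background on any array. Where a probe lies on its transcript was not checked, so these values do not show whether MALAT1 or GAS5 was expressed. H19, an imprinted transcript, was above background on 2 arrays, both of the 5'isomiR in MCF10A. TUG1 was above background on all 12.

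A gene was called lower if it stood under 65% of the reference group, and higher if it stood over 65% above it. Either call also needed an adjusted p under 0.05 from limma over all 10491 genes. Values below are normalized log2 intensities per array, in the order of the replicate numbers. They are compared within a probe and give no order between genes. Differences are log2 fold changes with the standard error of the fit. Counts over the 109 members are a description, because detection helped to choose them.

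In MCF10A, 5'isomiR-140-3p lowered PRKCQ-AS1 and MORC2-AS1 and raised LINC01315, SERTAD4-AS1 and LINC00997. In all, 4 members were called lower and 5 higher, or 3.67% and 4.59% of the 109. Among all tested genes 7.34% were called lower and 5.25% higher, so the share of members that fell was below that of all genes and the share that rose was close to it. The median change of the members was 0.10, against 0.01 over all tested genes. By kind, 3 of 42 antisense (7.14%) and 1 of 14 divergent transcripts (7.14%) fell, against 7.34% of all genes. The rises were 3 of 32 LINC genes (9.38%), 1 antisense (2.38%) and 1 divergent transcript (7.14%), against 5.25%. Of these calls, 2 lower and 3 higher were detected without the brighter side.

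PRKCQ-AS1, antisense to the gene of protein kinase C theta, was at 7.12 and 7.18 on the control arrays, 7.34 and 7.23 with the canonical miRNA, and 6.06 and 5.52 with the 5'isomiR. The arrays of the 5'isomiR lay below all others of the line, and those of the canonical miRNA lay just above the controls. The change with the 5'isomiR was -1.36 ± 0.17 (38.9% of control, adjusted p = 0.000592, limma), and the call held without any 1 of the 12 arrays. The second array of the 5'isomiR, at 5.52, was at background, so 1 of the 2 arrays measured the lower level. With the canonical miRNA it was 0.14. In MDA-MB-231 the transcript was at background on all arrays, at 4.43 to 4.73.

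MORC2-AS1, antisense to the gene of a chromatin ATPase, was at 6.70 and 6.89 in the MCF10A controls and at 6.05 and 5.91 with the 5'isomiR. Its change was -0.81 ± 0.18 (56.9% of control, adjusted p = 0.0117, limma). The arrays of the canonical miRNA lay in between, at 6.51 and 6.07. The call rested on single arrays, since the adjusted p was 0.0651 without control 2 and 0.0746 without the second array of the 5'isomiR.

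LINC01315 was at 6.26 and 4.96 in the MCF10A controls, 6.11 and 6.35 with the canonical miRNA, and 7.89 and 7.85 with the 5'isomiR. The arrays of the 5'isomiR stood clear of the other 4, while the controls differed from each other by more than the replicates of either mimic. Control 2, at 4.96, was at background, so 1 of the 2 control arrays measured the transcript. The fitted change was 2.26 ± 0.32 (479% of control, adjusted p = 0.00124, limma), and its size depends on an array without a measured level. Against control 1 alone, the array above background, it was 1.61, and against control 2 alone it was 2.91, and it was called both times. In MDA-MB-231 LINC01315 was at background on all 6 arrays, at 4.56 to 4.87.

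SERTAD4-AS1, a transcript antisense to the gene of a SERTA domain protein, showed a like pattern. It was at 6.47 and 5.32 in the MCF10A controls, the second of them at background, 6.25 and 6.71 with the canonical miRNA, and 7.84 and 7.76 with the 5'isomiR. The fitted change with the 5'isomiR was 1.91 ± 0.37 (375% of control, adjusted p = 0.0061, limma). It was 1.34 against control 1 alone, the array above background, and 2.48 against control 2 alone, and the call held without any 1 array. LINC00997 rose from 5.88 and 5.99 to 6.72 and 6.76, a change of 0.81 ± 0.23 (adjusted p = 0.0337, limma). That call was lost without any 1 of the 4 arrays compared (adjusted p of 0.0863 to 0.128).

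The other 4 called members were detected through 1 side only. IRX2-DT, divergent from the gene of an Iroquois homeobox factor, was at 6.51 and 6.10 with the 5'isomiR and at 4.56 to 4.72 on the other 4 MCF10A arrays, which is at least 1.62-fold higher than control. LINC01451 was at 6.36 and 6.14 with the 5'isomiR and 4.85 and 4.59 in the controls, at least 1.56-fold higher. Each bound sets the brighter group against the background level on the arrays of the dimmer one. ANKRD13C-DT went from 6.36 and 6.02 in the controls to 5.02 and 5.02, at least 1.50-fold lower, and it was also low with the canonical miRNA, at 4.68 and 5.46. NOP14-AS1 went from 5.44 and 5.77, the first of them at background, to 4.80 and 4.60, and was at 4.87 and 4.67 with the canonical miRNA.

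**Figure D1:**
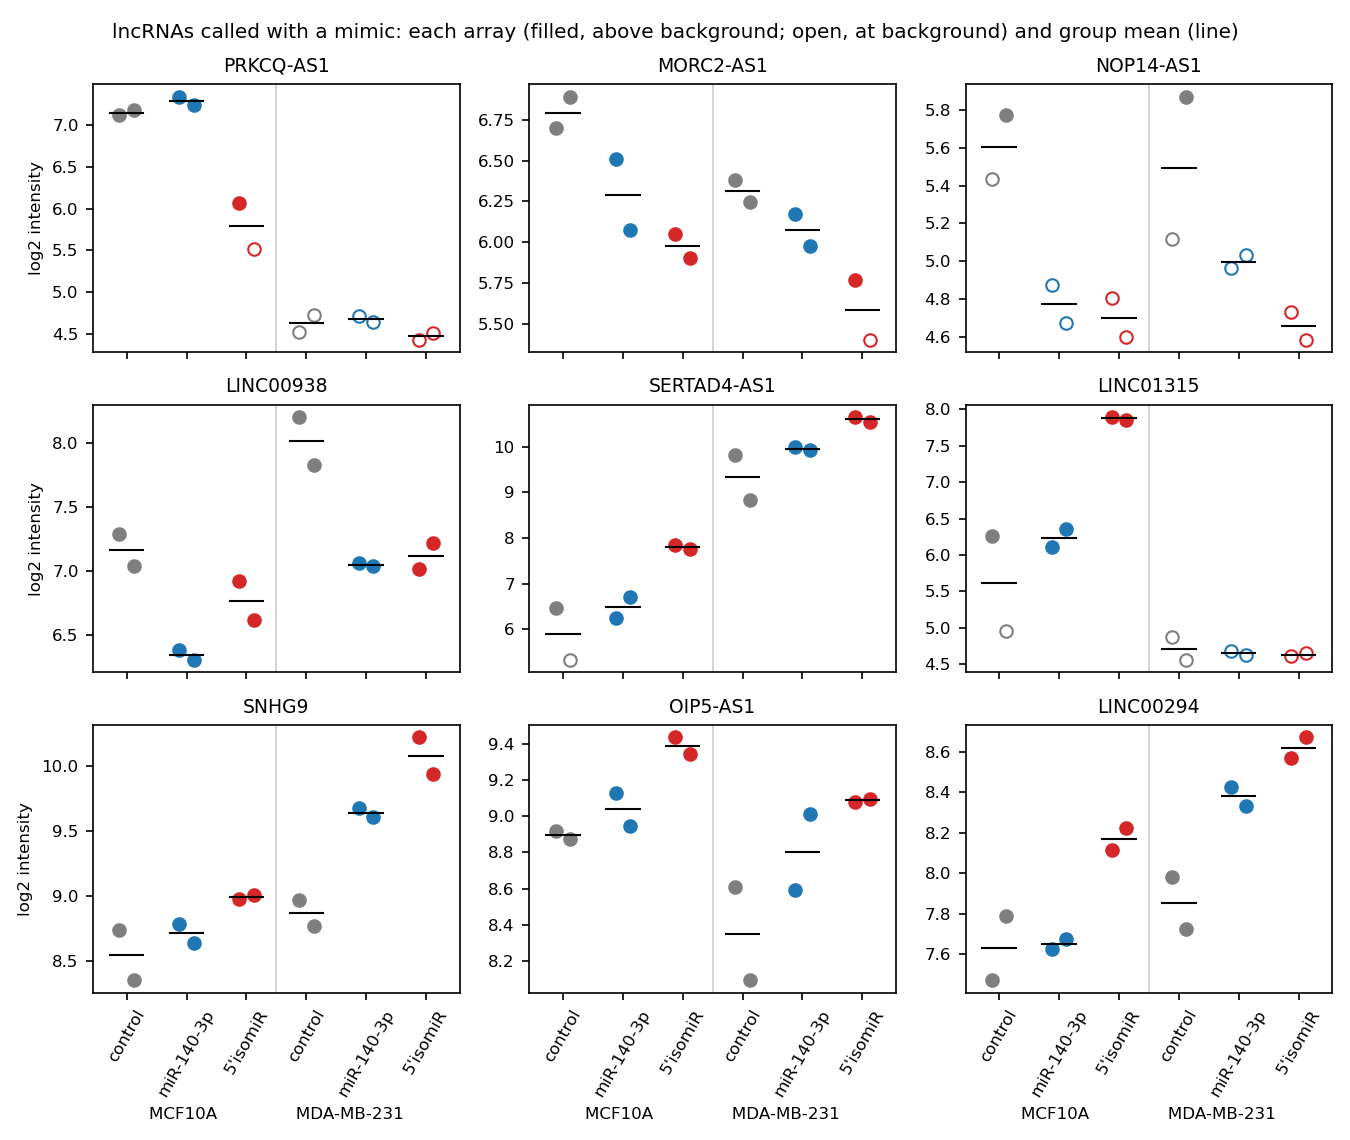
Normalized log2 intensity (y axis) of 9 lncRNAs on each array by cell line and mimic (x axis), with filled points above background, open points at background and lines at the mean of 2 arrays. PRKCQ-AS1 fell and LINC01315 rose with the 5'isomiR in MCF10A while both were at background on the MDA-MB-231 arrays, and SNHG9 rose with the 5'isomiR in MDA-MB-231.

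In MDA-MB-231, 5'isomiR-140-3p lowered LINC00938 and MORC2-AS1 and raised SNHG9, LINC00294 and OIP5-AS1. There were 3 members called lower and 3 higher, 2.75% each way, against 5.09% and 2.41% of all tested genes. The share of members that rose was thus close to that of all genes, and the share that fell was lower. The median change was 0.07 over the members and 0.01 over all genes.

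SNHG9, a snoRNA host, was at 8.97 and 8.77 in the controls, 9.68 and 9.61 with the canonical miRNA, and 10.22 and 9.94 with the 5'isomiR. The groups did not overlap and stood in that order. The change with the 5'isomiR was 1.21 ± 0.16 (231% of control, adjusted p = 0.00139, limma), and the call held without any 1 array. With the canonical miRNA the change was 0.77 ± 0.16 with an adjusted p of 0.05, just over the limit, and the 5'isomiR was 0.44 above the canonical miRNA (adjusted p = 0.136, limma). In MCF10A SNHG9 was at 8.74 and 8.35 in the controls and at 8.98 and 9.01 with the 5'isomiR, a change of 0.44 that was not called. The difference of 0.76 between the lines in the change with the 5'isomiR was not called either (adjusted p = 0.0866, limma).

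LINC00938 fell with either mimic in this line. It was at 8.20 and 7.83 in the controls, 7.06 and 7.04 with the canonical miRNA, and 7.02 and 7.22 with the 5'isomiR. The arrays of the mimics overlapped each other and lay below both controls. The change was -0.97 ± 0.17 with the canonical miRNA (51.2% of control, adjusted p = 0.025, limma) and -0.90 ± 0.17 with the 5'isomiR (53.6%, adjusted p = 0.00787). These comparisons share the control arrays. The first call was lost without either array of the canonical miRNA (adjusted p of 0.199 and 0.166), and the second without the first array of the 5'isomiR (-0.80, adjusted p = 0.0724). In MCF10A LINC00938 was at 7.29 and 7.04 in the controls, 6.38 and 6.31 with the canonical miRNA and 6.92 and 6.62 with the 5'isomiR. There the changes of -0.82 (adjusted p = 0.0553) and -0.40 (adjusted p = 0.122) were not called.

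LINC00294 was at 7.98 and 7.72 in the MDA-MB-231 controls, 8.43 and 8.33 with the canonical miRNA, and 8.57 and 8.67 with the 5'isomiR. The change with the 5'isomiR was 0.77 ± 0.14 (170% of control, adjusted p = 0.00839, limma). Without control 2 it was 0.64, under the fold limit, and without the second array of the 5'isomiR the adjusted p was 0.0639. In MCF10A it went from 7.47 and 7.79 to 8.11 and 8.23, which was not called.

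OIP5-AS1 was at 8.61 and 8.09 in the MDA-MB-231 controls and 9.08 and 9.10 with the 5'isomiR, a change of 0.74 ± 0.19 (167% of control, adjusted p = 0.0318, limma). The canonical miRNA gave 8.59 and 9.01, a group that overlapped the controls. The call was lost without control 2 (0.48, adjusted p = 0.13), without the first or the second array of the 5'isomiR (adjusted p of 0.135 and 0.133), and without either array of the 5'isomiR in MCF10A (adjusted p = 0.0501). MORC2-AS1 fell from 6.38 and 6.25 to 5.77 and 5.40, the last at background, by -0.73 ± 0.18 (60.4% of control, adjusted p = 0.0293, limma). It was not called without control 1 (adjusted p = 0.0838), control 2 (adjusted p = 0.0567) or the second array of the 5'isomiR (-0.54, adjusted p = 0.187). NOP14-AS1, detected through 1 side only, went from 5.12 and 5.87, the first of them at background, to 4.73 and 4.58. Its call was lost in 5 of 7 alternatives of the processing.

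MORC2-AS1 and NOP14-AS1 were the 2 members called lower with the 5'isomiR in both lines, and no member was called higher in both. MORC2-AS1 was called in neither line without background correction or with the deposited values on the log2 scale. NOP14-AS1 was detected through 1 side only in each line, so its calls are a description with no test. Over all 10491 genes, 274 were called lower and 53 higher in both lines. SERTAD4-AS1 was higher with the 5'isomiR on both arrays of each line. In MDA-MB-231 it went from 9.82 and 8.84 to 10.65 and 10.55, a change of 1.27 ± 0.37 that missed the limit (adjusted p = 0.0546, limma).

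**Figure D2:**
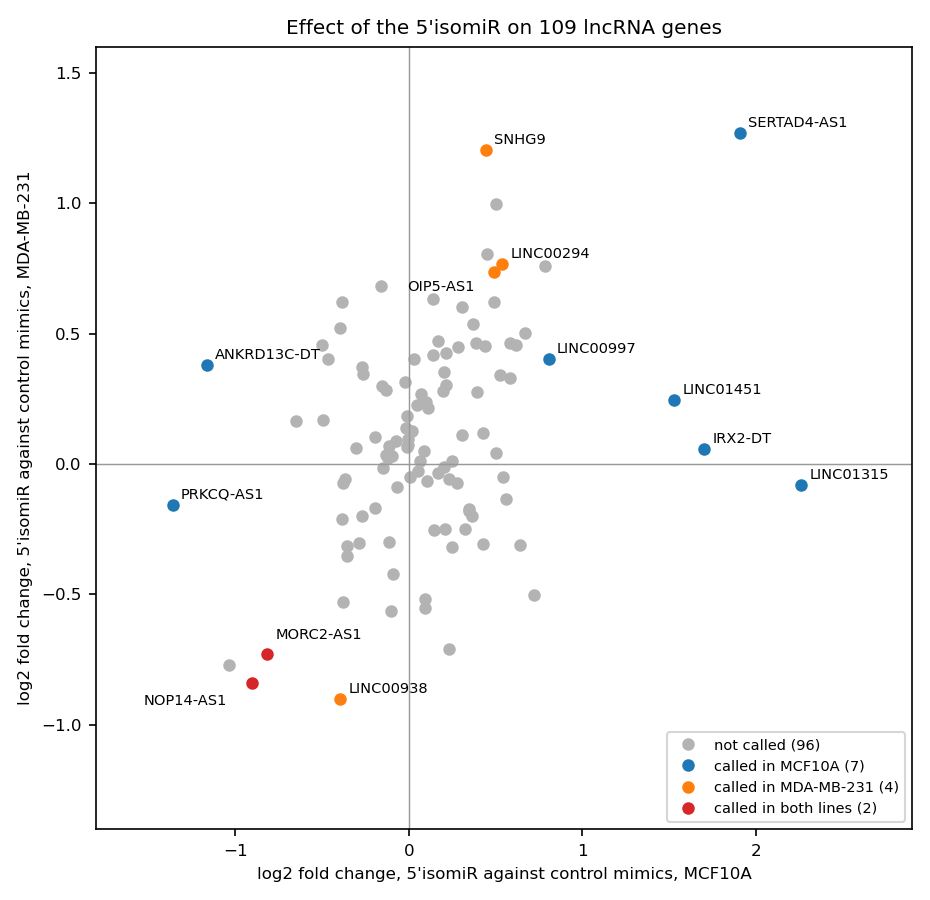
Log2 fold change with the 5'isomiR against control mimics in MCF10A (x axis) and MDA-MB-231 (y axis), 1 point for each of the 109 lncRNA genes, with colours for the line in which a gene was called. Most points lie near the origin, and LINC01315 and PRKCQ-AS1 lie far from 0 on the x axis only. MORC2-AS1 and NOP14-AS1 are the 2 called in both lines, with NOP14-AS1 detected through 1 side only.

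The canonical hsa-miR-140-3p gave few calls. In MCF10A limma called 0 members in either direction, against 0.724% of all genes lower and 0.143% higher. Before adjustment 18 members had a p under 0.05 (limma), as had 1457 of all 10491 tested genes. By the t-test on the same values, 3 members were past the fold limit and the unadjusted limit, and all were lower. Of all genes, 123 were lower and 33 higher by that rule. After adjustment there were 0 members. In MDA-MB-231 LINC00938 was the 1 member called (0.917% of the 109), against 1.02% of all genes lower and 0.191% higher. There 11 members had an unadjusted p under 0.05 (limma), as had 1561 of all 10491 genes. The median change of the members was 0.02 in MCF10A, and it was 0.03 in MDA-MB-231. PGM5-AS1 in MCF10A came near to a call. It went from 5.86 and 5.34 in the controls, the second at background, to 6.68 and 6.44, a change of 0.96 (adjusted p = 0.0529).

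The mimics were also set against each other at the same dose and time. In MCF10A the 5'isomiR stood lower than the canonical miRNA in 2 members and higher in 8, or 1.83% and 7.34%, against 6.43% and 5.21% of all tested genes. Of these, 2 lower and 4 higher members were detected without the brighter side. PRKCQ-AS1 differed by -1.50 (adjusted p = 0.000411, limma), LINC01315 by 1.64 (adjusted p = 0.00725) and SERTAD4-AS1 by 1.32 (adjusted p = 0.0332). The call of PRKCQ-AS1 held without any 1 array. That of LINC01315 was lost without the first array of the canonical miRNA (1.52, adjusted p = 0.0521). That of SERTAD4-AS1 was lost without any 1 of the 4 arrays compared (1.09 to 1.55, adjusted p of 0.0668 to 0.174) and without any 1 of the 4 mimic arrays of MDA-MB-231 (adjusted p of 0.0518 and 0.0527).

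EPB41L4A-DT and MIR503HG differed between the mimics without a call against the controls. Neither difference was called without background correction or with the deposited values. EPB41L4A-DT was at 5.64 and 5.53 in the controls, the second at background, 5.17 and 4.77 with the canonical miRNA, and 6.12 and 6.22 with the 5'isomiR. The 5'isomiR was higher than the canonical miRNA by 1.20 ± 0.21 (adjusted p = 0.00399, limma), and as the canonical arrays were at background the bound is at least 1.35-fold. MIR503HG, the host of miR-503, was at 5.67 and 5.56 in the controls, the second at background, 4.99 and 4.72 with the canonical miRNA, and 5.62 and 5.90 with the 5'isomiR. The difference was 0.91 ± 0.19 (adjusted p = 0.00959, limma; at least 1.02-fold), with controls at the level of the 5'isomiR. It was not called without the second array of the canonical miRNA (0.77, adjusted p = 0.0738) or of the 5'isomiR (0.77, adjusted p = 0.0726). PGM5-AS1 was lower with the 5'isomiR, at 5.93 and 5.93, by -0.63 ± 0.19 (adjusted p = 0.0428, limma). Its call was lost in 6 of 7 alternatives of the processing. That call was lost without any 1 of the 4 arrays (-0.75 to -0.51, adjusted p of 0.0818 to 0.219) and without either canonical array of MDA-MB-231 (adjusted p = 0.0673).

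The remaining 4 were detected through the 5'isomiR arrays, and their values describe that. IRX2-DT was at least 1.49-fold higher than with the canonical miRNA, LINC01451 at least 1.43-fold, RUSC1-AS1 at least 1.11-fold and H19 at least 1.09-fold. H19 was at 5.69 and 6.02 with the 5'isomiR and at 4.80 to 5.27 on the other MCF10A arrays.

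In MDA-MB-231 the 5'isomiR stood lower than the canonical miRNA in 0 members and higher in 3 (2.75%), against 3.58% and 1.45% of all genes. For this comparison 20 members had an unadjusted p under 0.05 (limma), as had 2287 of all 10491 genes. The t-test past the fold limit and the unadjusted limit gave 0 members lower and 4 higher, against 408 and 172 genes. ATP2B1-AS1, antisense to the gene of a calcium pump of the plasma membrane, was at 8.88 and 8.86 in the controls, 8.38 and 8.39 with the canonical miRNA, and 9.39 and 9.27 with the 5'isomiR. The controls lay between the mimics. The difference between the mimics was 0.95 ± 0.18 (adjusted p = 0.0112, limma), and the call was lost without any 1 of the 4 arrays (0.89 to 1.01, adjusted p of 0.0587 to 0.0902). PORCN-DT, at 6.44 and 6.01 against 4.85 and 4.97, was at least 1.54-fold higher, and SLC38A4-AS1, at 5.61 and 5.80 against 4.82 and 4.91, at least 1.07-fold. Both were detected through the 5'isomiR arrays only.

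Whether a mimic acted differently in the lines was tested as the difference between its changes. For the canonical miRNA limma called 0 of 109 members, and 0 and 0 percent of all genes, lower or higher in MDA-MB-231. Unadjusted, 8 members had a p under 0.05 (limma), as had 833 of all 10491 genes. No other tool was run on this difference. For the 5'isomiR limma called 3 members lower (2.75%) and 1 higher (0.917%), against 3.29% and 2.19% of all genes. All 4 were at background on every MDA-MB-231 array, so their change in that line could not be measured, and these values do not show that the mimic acted differently in the lines. LINC01315 differed by -2.34 ± 0.46 (adjusted p = 0.019, limma) and PRKCQ-AS1 by 1.20 ± 0.24 (adjusted p = 0.02, limma). The difference for LINC01315 was not called without any 1 of the 4 arrays of the 5'isomiR (adjusted p of 0.0594 to 0.0735), and was -1.69 without MCF10A control 2. That for PRKCQ-AS1 was not called without MCF10A control 2 (adjusted p = 0.0513) or either 5'isomiR array of MDA-MB-231 (adjusted p of 0.0642 and 0.0757). IRX2-DT (-1.64) and H19 (-1.22) were detected only on the 5'isomiR arrays of MCF10A, and their values are a description with no test. SERTAD4-AS1, detected in both lines, differed by -0.64, which was not called (adjusted p = 0.55).

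Among the host genes of small RNAs, SNHG9 was the 1 called against the controls. Of 13 snoRNA hosts, the 5'isomiR gave 0 calls in MCF10A, where 12.6% of all tested genes were called. It gave 1 call (7.69%) in MDA-MB-231, against 7.50% of all genes. The canonical miRNA gave 0 in either line, against 0.867% (MCF10A) and 1.21% (MDA-MB-231) of all genes. Such small counts do not set the hosts apart from all genes, or the lines from each other. With the 5'isomiR in MDA-MB-231 the hosts had a median change of 0.24, against 0.01 over all genes, and 6 of the 13 had an unadjusted p under 0.05 (limma), as had 2779 of all 10491 tested genes. SNHG5 was at 12.39 to 12.73 over the 6 MCF10A arrays and 12.37 to 12.62 over those of MDA-MB-231. Across both mimics and lines its changes were between -0.05 and 0.25. A second SNHG5 probe, above background on 12 arrays, had changes between -0.18 and 0.10. On the probes tested, SNHG7, SNHG17 and SNHG32 had changes of no more than 0.47 in size. A dimmer SNHG32 probe, above background on 2 arrays, changed by -0.63 with the canonical miRNA in MCF10A. SNHG8 had a change of 0.45 with the 5'isomiR in MDA-MB-231 (adjusted p = 0.154, limma), which was not called.

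SNHG6 had 1 array apart. In MDA-MB-231 it was at 9.85 on control 1 and 11.24 on control 2, against 11.24 to 11.26 with the canonical miRNA and 11.53 to 11.55 with the 5'isomiR. The change with the 5'isomiR was 1.0 ± 0.33 and was not called (adjusted p = 0.0849, limma). Without control 2, which leaves the low array as the sole control, it was 1.69 and called (adjusted p = 0.00048). With no background correction it was 0.95 and called (adjusted p = 0.0289). SNHG4 in MCF10A was at 6.04 and 6.21 in the controls and 6.97 and 6.57 with the 5'isomiR, a change of 0.64 that was not called.

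None of the 5 microRNA hosts was called against the controls with either mimic in either line. As at most 12.6% of all tested genes were called in any of these comparisons, 0 of 5 does not set the hosts apart. MIR100HG, the host of miR-100, let-7a-2 and miR-125b-1, was at 9.17 and 8.87 in the MDA-MB-231 controls, 8.44 and 8.38 with the canonical miRNA, and 9.07 and 9.10 with the 5'isomiR. The change of -0.61 with the canonical miRNA was not called, but it was -0.76 and called without control 2 (adjusted p = 0.0349, limma). MIR503HG had a change of -0.76 with the canonical miRNA in MCF10A, where both arrays of that miRNA were at background, and of 0.63 with the 5'isomiR in MDA-MB-231 (adjusted p = 0.0595, limma), neither of them called. MIR181A2HG was at background on 9 of 12 arrays. Its values with the 5'isomiR in MDA-MB-231 were 5.68 and 5.93, against 5.47 and 4.53 in the controls, detected through 1 side only. TUG1 was at 10.17 and 9.996 in the MCF10A controls, 9.97 and 9.88 with the canonical miRNA and 10.49 and 10.54 with the 5'isomiR. Its change with the 5'isomiR was 0.43 there and 0.12 in MDA-MB-231, and neither was called.

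**Figure D3:**
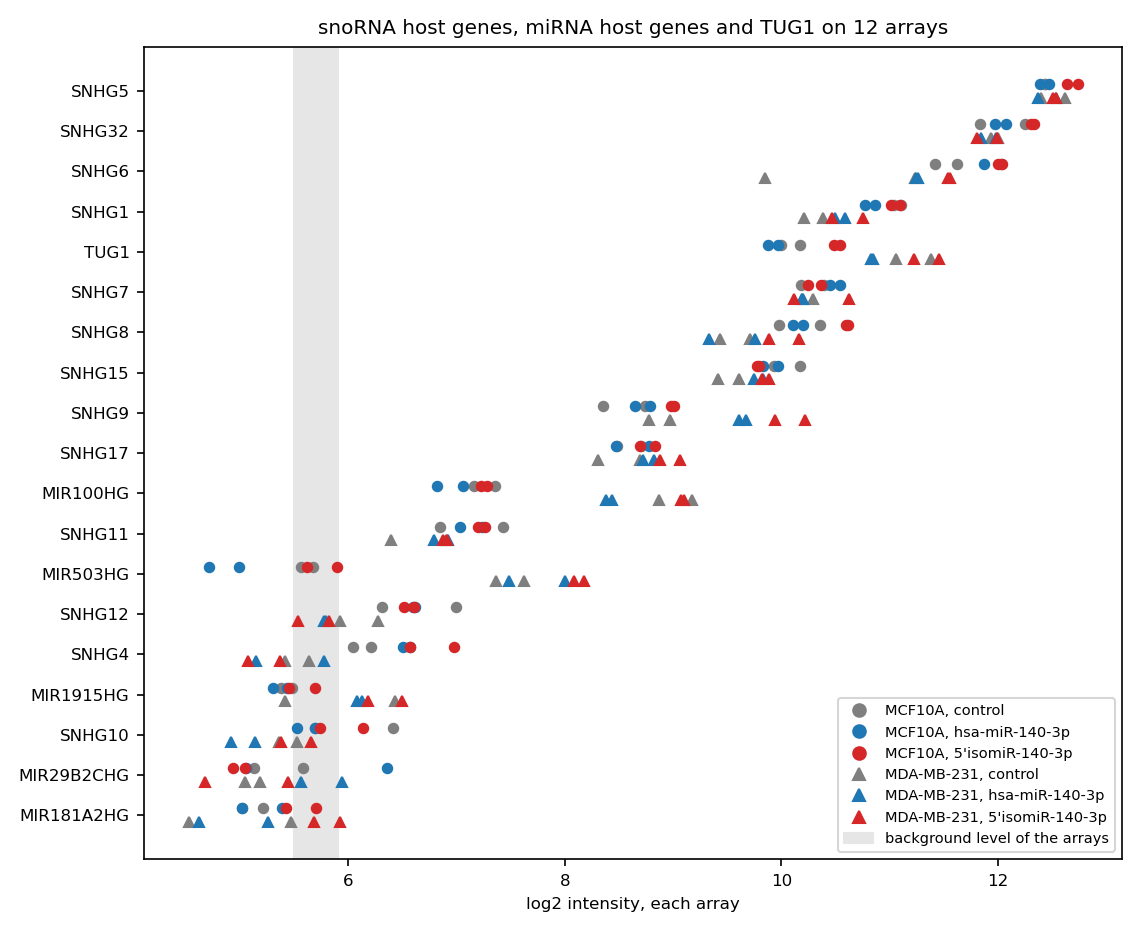
Normalized log2 intensity (x axis) of 13 snoRNA hosts, 5 microRNA hosts and TUG1 (y axis) on every array, with circles for MCF10A, triangles for MDA-MB-231, colours for the mimic and a grey band for the range of the background level over the arrays. Levels of different genes come from different probes and are not comparable, and within a gene SNHG9 shows the 5'isomiR arrays of MDA-MB-231 at 10.22 and 9.94 to the right of its other arrays.

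Most antisense and divergent transcripts are named after the gene beside them. Of 57 such members, 45 had that gene among the 10491 tested. Each was measured with a probe of its own, and whether a probe also binds the transcript of the other strand was not tested. With the 5'isomiR in MCF10A, 6 of these 45 lncRNAs (13.3%) and 8 of the named genes (17.8%) were called in either direction, against 12.6% of all tested genes. In 2 pairs both were called the same way. SERTAD4 rose together with SERTAD4-AS1, from 5.39 and 6.12 in the controls, the first at background, to 7.70 and 7.58, a change of 1.88 ± 0.37 (adjusted p = 0.00651, limma). PRKCQ went from 5.92 and 5.74 in the controls to 5.02 and 4.72, at least 1.17-fold lower. It was above background on those control arrays alone, so it was detected through 1 side only and its call is a description.

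The other pairs differed. MORC2 changed by -0.05 in MCF10A and by -0.01 in the other line, while MORC2-AS1 fell in both. NOP14, a factor of ribosome biogenesis, changed by -0.21 and 0.32. IRX2 changed by 0.70 (adjusted p = 0.00324, limma), under the fold limit. In MDA-MB-231 3 of the 45 lncRNAs (6.67%) and 1 of the named genes (2.22%) were called with the 5'isomiR, against 7.50% of all genes, in no pair both. OIP5, a factor in centromere assembly, changed there by 0.62 (adjusted p = 0.0473, limma), under the fold limit, beside OIP5-AS1.

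Between the mimics, SERTAD4 was higher with the 5'isomiR than with the canonical miRNA in MCF10A by 1.85 ± 0.37 (adjusted p = 0.0078, limma), as was its antisense transcript, with the first canonical array of SERTAD4 at background. In MDA-MB-231 SLC38A4, an amino acid transporter gene, was at 6.11 and 5.81 with the 5'isomiR and 4.65 and 4.92 with the canonical miRNA, at least 1.28-fold higher. It was detected through 1 side only, as SLC38A4-AS1 was. ATP2B1 differed by 0.17 there and was not called, while ATP2B1-AS1 was. EPB41L4A differed by -0.27 in MCF10A and was not called, while EPB41L4A-DT was.

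**Figure D4:**
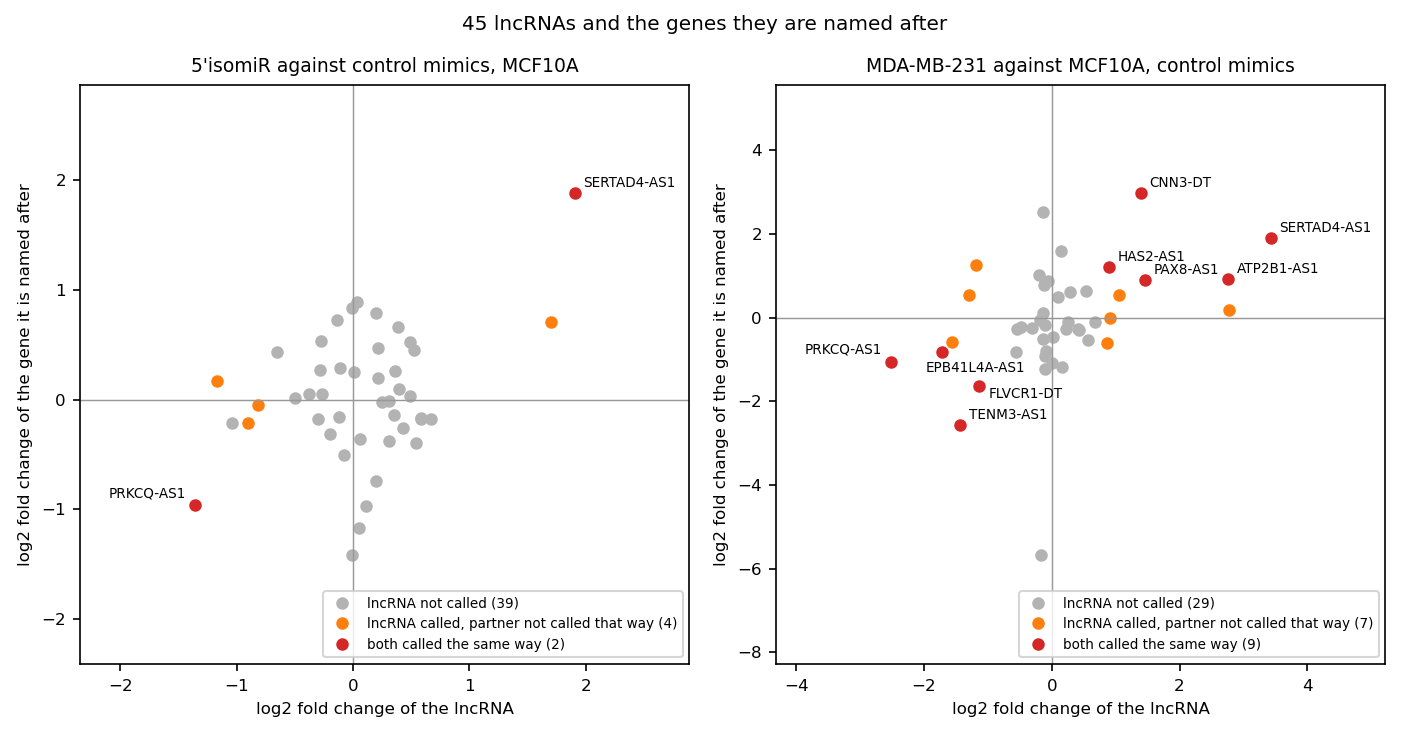
Log2 fold change of the gene an lncRNA is named after (y axis) against that of the lncRNA (x axis) for 45 pairs, with the 5'isomiR against control mimics in MCF10A in 1 panel and MDA-MB-231 against MCF10A under control mimics in the other. Both members of a pair were called the same way in 2 pairs in the first panel, PRKCQ and SERTAD4 with their antisense transcripts, and in 9 pairs in the second, of which 1 and 3 pairs were detected without the brighter side.

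Proteins that work with lncRNAs were read from 3 lists. Of 10 measured paraspeckle proteins (12 listed), 0 were called with either mimic against the controls. As at most 12.6% of all tested genes were called in any of these comparisons, 0 of 10 does not set the list apart. NUDT21, which takes part in 3' end processing, was higher with the 5'isomiR than with the canonical miRNA in MDA-MB-231 (0.86 ± 0.21, adjusted p = 0.0366, limma). Of 16 snoRNA-protein complex members and assembly factors, RUVBL1 and NUFIP1 were called lower with the 5'isomiR in each line and 0 were called higher. That is 12.5% lower in each line, against 7.34% of all genes in MCF10A and 5.09% in MDA-MB-231. The lists were chosen with earlier results of these data known, so such shares are a description with no test. The authors had also picked RUVBL1 from these arrays as a candidate target. RUVBL1, an ATPase of complex assembly, fell by 1.63 on the log2 scale in MCF10A and by 1.59 in MDA-MB-231, each with an SE of 0.12. NUFIP1, an assembly factor, went from 6.76 and 6.33 in the MCF10A controls to 5.49 and 5.72, the first of them at background, a change of -0.94 ± 0.20. In MDA-MB-231 it went from 5.62 and 5.999 to 5.08 and 4.88, both at background, at least 1.20-fold lower. The list's median change was -0.12 for MCF10A, against 0.07 for the other line, and the snoRNA hosts gave 1 call, SNHG9, as above. Of 10 measured nonsense-mediated decay factors (15 listed), SMG9, a partner of the kinase SMG1, was called higher with the 5'isomiR in MCF10A (0.95 ± 0.16) and in MDA-MB-231 (1.0 ± 0.16). That is 10% of the list in each line, against 5.25% and 2.41% of all genes called higher.

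The lines themselves differed in more lncRNAs than either mimic changed. Under the control mimics, 13 members were lower in MDA-MB-231 than in MCF10A and 23 were higher, or 11.9% and 21.1%, against 19.9% and 20.5% of all tested genes. The share that was higher was close to that of all genes, and the share that was lower was smaller. Of these, 8 lower and 11 higher members were detected without the brighter side. The sorted deposited values nearly coincided between the arrays of a line, and whether the authors normalized each line by itself is not given in the sources used here. A difference between lines and an effect of such a normalization cannot be told apart.

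Among the higher members, SERTAD4-AS1 went from 6.47 and 5.32 (the second at background) in MCF10A to 9.82 and 8.84 in MDA-MB-231, by 3.43 ± 0.37 (adjusted p = 3.17e-05, limma). ATP2B1-AS1 went from 6.30 and 5.90 to 8.88 and 8.86, by 2.77 ± 0.18 (adjusted p = 6.83e-07, limma). The microRNA hosts MIR503HG, from 5.67 and 5.56 (the second at background) to 7.63 and 7.36, and MIR100HG, from 7.16 and 7.36 to 9.17 and 8.87, were higher by 1.88 ± 0.19 and 1.76 ± 0.14. TUG1 was higher by 1.14 ± 0.14 (adjusted p = 8.49e-05, limma), at 11.38 and 11.06 against 10.17 and 9.996. In each of these genes, picked from the called ones, the control arrays of the lines did not overlap, which is a description with no test.

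Further members were detected through the MDA-MB-231 side only. SLCO4A1-AS1, antisense to the gene of an organic anion transporter, was at 7.76 and 6.93 in the MDA-MB-231 controls and at background on all 6 MCF10A arrays, which gives at least 3.34-fold. DLGAP1-AS1 was at least 1.61-fold, LINC00261 at least 1.57-fold and LINC00472 at least 1.57-fold higher in MDA-MB-231, where it was detected on 6 of 6 arrays.

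Among the lower members, EPB41L4A-AS1 went from 10.66 and 10.51 in MCF10A to 8.69 and 9.05 in MDA-MB-231, by -1.72 ± 0.17 (adjusted p = 1.83e-05, limma). DHRS4-AS1 went from 7.54 and 7.23 to 6.06 and 5.59, the last at background, by -1.56 ± 0.22 (adjusted p = 0.000186, limma), and FLVCR1-DT from 7.51 and 7.59 to 6.30 and 6.52, by -1.14 ± 0.19 (adjusted p = 0.00063, limma). VPS9D1-AS1, at 6.25 and 7.50 against 5.43 (at background) and 5.94, differed by -1.19 ± 0.34 (adjusted p = 0.0127, limma). Without MCF10A control 2 it was -0.56, and without MDA-MB-231 control 1 it was -0.94, and neither was called. PRKCQ-AS1 (at least 2.88-fold), ANKRD13C-DT (at least 1.48-fold) and TENM3-AS1 (at least 1.45-fold) were detected through the MCF10A side only in this comparison.

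Of the snoRNA hosts, SNHG1 and SNHG6 were called lower in MDA-MB-231 under the control mimics. SNHG1 went from 11.04 and 11.11 in MCF10A to 10.21 and 10.38 in MDA-MB-231, a difference of -0.78 ± 0.13 (adjusted p = 0.000642, limma). With the mean over all 3 groups of each line, SNHG1 differed by -0.50 and was not called. In that setting SNHG4 (-1.08) and SNHG12 (-0.76) were called lower and SNHG9 (0.78) higher. For SNHG6 the difference under the control mimics was -0.97 ± 0.33 (adjusted p = 0.0304, limma). Without the low control 1 of MDA-MB-231 it was -0.28 and not called, and it was also not called without control 1 (-1.07) or control 2 (-0.87) of MCF10A. The median over the 13 snoRNA hosts was -0.54, against 0.04 over all genes. Of the hosts 2 of 13 were called lower (15.4%), against 19.9% of all genes. In the protein lists, 8 of 16 snoRNA-protein complex members and assembly factors and 6 of 10 paraspeckle proteins were called lower and 0 higher, with medians of -0.63 and -0.70. FBL, the methyltransferase of box C/D complexes, was lower, with a difference of -1.0 ± 0.11, and so were NOP58 (-0.97 ± 0.13) and the paraspeckle protein DAZAP1 (-0.96 ± 0.12). Of 10 decay factors 0 were called lower. SMG6 passed the limits as higher, but it was above background on 1 of the 4 control arrays, at 5.73 and 5.08 in MDA-MB-231 against 4.68 and 4.67 in MCF10A, and no fold is given.

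**Figure D5:**
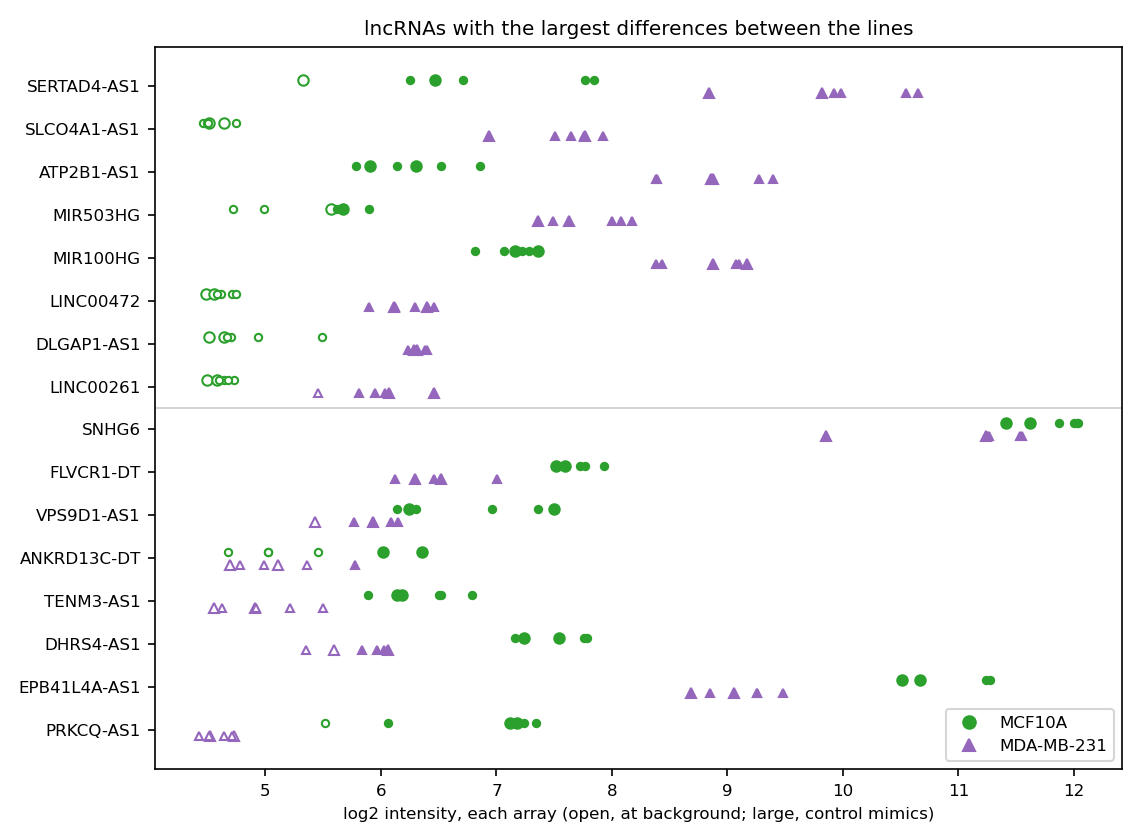
Normalized log2 intensity (x axis) on each of the 12 arrays for the 8 lncRNAs with the largest called difference in each direction (y axis), with circles for MCF10A, triangles for MDA-MB-231, large symbols for control mimics, small symbols for the mimics of the canonical miRNA and its variant, and open symbols at background. The 16 were picked by this difference, so it is a description with no test that the control arrays of the lines do not overlap in them. SERTAD4-AS1 shows the largest difference (3.43), and SNHG6 has its MDA-MB-231 control arrays far apart, at 9.85 and 11.24.

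Among the 45 pairs, 16 lncRNAs (35.6%) and 22 of the named genes (48.9%) were called between the lines in either direction, against 40.4% of all tested genes. In 9 pairs both were called the same way, and in 3 of these both were detected without the brighter side. ATP2B1 (0.93) and SERTAD4 (1.90) were higher in MDA-MB-231 with their antisense transcripts, with the first MCF10A control of SERTAD4 at background, and EPB41L4A (-0.81) was lower with EPB41L4A-AS1. In the other 6 pairs at least 1 member was detected through 1 side only. CNN3-DT, HAS2-AS1 and PAX8-AS1, with HAS2 and PAX8, were detected through MDA-MB-231. PRKCQ-AS1 and TENM3-AS1, with PRKCQ, TENM3 and FLVCR1, were detected through MCF10A. VPS9D1 was called the other way from VPS9D1-AS1, at 6.36 and 6.42 in MDA-MB-231 and 4.91 and 5.35 in MCF10A, at least 1.72-fold higher and detected through 1 side only. SLCO4A1 differed by 0.17 and was not called.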

How the data were processed

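Total RNA of 12 samples was amplified, stained with Cy3-streptavidin and hybridised to BeadChips, 1 sample per array. The deposited intensity values are on a linear scale and were normalized by the authors, by a method not given in the sources used here. Sorted values nearly coincided between the arrays of a line, and the lowest value on an array was 71.3 to 74.2. A table of signals before normalization has 24 columns whose names match no sample, and it was not used. Of 47323 probes, 4 with missing values were left out. Of the rest, 30111 were paired with 1 gene in the platform annotation (8 with several, 17200 with none), and the symbols of 30072 were updated through their gene IDs.

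In R 4.3.3 with limma 3.58.1, intensities were corrected by normexp (offset 16, with 457 olfactory receptor probes as negative controls), quantile normalized over 12 arrays and log2 transformed. The brightest probe per gene was tested in 1 linear model with 6 group means, eBayes (6 residual and 3.79 prior degrees of freedom) and Benjamini-Hochberg adjustment. Such p-values measure the spread between these samples, which may be technical. A bound ("at least") sets the mean of the brighter group against, per array, the higher of the background level and the signal of the dim probe. The fit was tested on simulated data. Alternatives were no background correction, deposited values, median scaling, other filters, every probe, trend and robust moderation, each line alone, a t-test, each array left out and a replicate block.

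Named were the 5 single names, most SNHG and MIR...HG members, called members with no overlap of arrays (up to 8 per direction) and the members nearest the detection rule. The genes beside a named lncRNA and up to 4 called genes of a list were named too. SNHG10, SNHG11, SNHG15 and MIR1915HG were called in no comparison of the main fit. Their values are not given in the text, only in the plot of host gene levels on every array. Members that came near a call, or that were high in mean signal, were added where their values were of use. Members and lists were chosen with earlier results of these data known. Depth has no equivalent on arrays, where the number of arrays limits the precision.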

Additional observations from a re-analysis of the deposited data

Results flagged for a closer look

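For 2 lncRNAs the test of the difference between the cell lines in the change with 5'isomiR-140-3p was past its threshold (limma). Given as the change in MDA-MB-231 minus that in MCF10A, the fitted value was -2.34 for LINC01315 (adjusted p = 0.019) and 1.20 for PRKCQ-AS1 (adjusted p = 0.02). Both were at background on every MDA-MB-231 array. The values therefore set a change measured in MCF10A against a level that was not measured in the other line, and they do not show that the mimic acted differently in the lines.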

How the results depend on the processing

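Over the 39 calls of 28 members detected without the brighter side, the alternatives gave 810 values, of which 688 kept the call, 122 lost it and 0 changed sign. Calls of LINC01315, PRKCQ-AS1 and SERTAD4-AS1 with the 5'isomiR in MCF10A and of SNHG9 in MDA-MB-231 were lost under the t-test alone, of 21 alternatives. Without background correction, and with the deposited values on the log2 scale, the members called came to 3 for the 5'isomiR in MCF10A, 3 and 1 between the mimics in MCF10A and in the other line, 2 for the difference between lines in the change with the 5'isomiR, and 18 between the lines. For the canonical miRNA in MDA-MB-231 the count was 2 under median scaling, 2 with trend and robust moderation and 0 with each line fitted alone, and in MCF10A it was 1 with trend and robust moderation. The t-test, adjusted, called 0 members for either mimic in MDA-MB-231, for the 5'isomiR in MCF10A and between the mimics in either line. Before adjustment it gave 4 members lower and 3 higher for the 5'isomiR in MCF10A, against 562 and 389 of all tested genes. Without background correction and with the deposited values, the 5'isomiR calls of LINC00294, OIP5-AS1, MORC2-AS1 and NOP14-AS1 in MDA-MB-231 were lost. SNHG6 was called higher there in both settings. The call of LINC00997 with the 5'isomiR in MCF10A was lost in them too. The cause of these shifts was not tested.

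With each array left out in turn (a lone array of a group was then assumed to vary like the other groups), the members called ranged from 0 to 2 for the canonical miRNA in MCF10A (2 without MCF10A control 1 or either MDA-MB-231 control) and from 5 to 13 for the 5'isomiR (5 without control 2 or the second 5'isomiR array). In MDA-MB-231 they ranged from 0 to 4 for the canonical miRNA (0 without either of its arrays, 4 without control 1) and from 3 to 11 for the 5'isomiR (11 without control 1, 3 without the first 5'isomiR array). Between the mimics they ranged from 5 to 13 in MCF10A (5 without the first canonical array) and from 0 to 5 in MDA-MB-231 (0 without either canonical array, 5 without either control). For the difference between lines with the 5'isomiR they ranged from 2 to 5 (2 without either 5'isomiR array of MCF10A or the first of MDA-MB-231).

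Same-numbered mimic arrays did not deviate together (r = 0.0212 in MCF10A and -0.0210 in MDA-MB-231 across genes). The labels do not say whether such arrays were prepared together, and these values cannot decide it. With a replicate block over the 8 mimic arrays, 12 members were called between the mimics in MCF10A but 3 in MDA-MB-231. The same 8 arrays with no replicate block, an alternative chosen after seeing the data, gave 13 and 5.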
